A study of Mus musculus with 8 samples.

Results

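The 67 protein-coding genes of the clustered replication-dependent histones were examined in intestinal crypts of Mex3a knockout (KO) mice and littermate controls (Ctrl). The genes were chosen by name and biotype among the 55114 genes of the deposited table: every protein-coding gene whose symbol begins with Hist1h, Hist2h, Hist3h or Hist4h was taken, and no measured value was used. They comprise 6 genes of the linker histone H1, 18 of H2A, 18 of H2B, 12 of H3 and 13 of H4. By location, 54 belong to the Hist1 cluster on chromosome 13, 10 to Hist2 on chromosome 3, 2 to Hist3 on chromosome 11 and 1 to Hist4 on chromosome 6 (GRCm38). Crypts, the pockets of the intestinal epithelium that hold the stem and dividing cells, were detached with EDTA from the intestine of 4 KO and 4 wild-type (Ctrl) mice, all C57BL/6 and 8 weeks old. The KO is constitutive, with exon 1 and part of exon 2 of Mex3a deleted, so that no single cell type is targeted. The RNA was extracted as total RNA, and whether the libraries were made by poly(A) selection is not given in the sources used here.

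Replication-dependent histone genes supply the proteins that wrap newly made DNA, and they are transcribed mainly in S phase, when a cell copies its genome. The core histones H2A, H2B, H3 and H4 form the nucleosome, and H1 binds the DNA between nucleosomes. Their mRNAs are unusual in that most end in a short stem-loop in place of a poly(A) tail; the stem-loop is bound by the protein SLBP. Some of these genes are also known to give longer, polyadenylated transcripts, and a preparation that selects poly(A) tails captures the stem-loop form poorly. In the intestine the dividing cells lie in the crypt, whereas the differentiated cells of the villus have left the cell cycle.

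For each histone gene, only the coding transcript with the most bases was read (GENCODE M21, GRCm38). The stem-loop was searched in the whole 3′UTR of that transcript, and the 3′UTR lengths below are also taken from it. Shorter transcripts of a gene were not searched, so a stem-loop found only in such a form would have been missed. The motifs were GGCTCTNNNNAGAGCC, GGCCCTNNNNAGGGCC and GGTCCTNNNNAGGACC, each of which reads the same on both strands. One was present in 45 of the 67 genes (67.2%), beginning 21 to 58 bases after the stop codon with a median of 31. Of the 22 genes with no match, 15 have an annotated 3′UTR of under 20 bases, so that the annotated transcript stops before the place where the element would lie. Other genes were searched in the first 150 bases after the stop codon, a stretch that holds all 45 matches. Among genes whose annotation covers these 150 bases, 23 of 28 histone genes held a motif, against 7 of 18718 other protein-coding genes (0.0374%). One of these 7 was H2afx, an H2A variant gene outside the clusters.

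The matches had 8 forms. The search allowed only the stems listed above, with any bases in the loop, so a variant stem would have been missed. To set the differing bases side by side, 1 gene of each form is shown. The DNA letters run 5′ to 3′, with the stem-loop in capitals and 5 flanking bases in lower case.
Hist1h1c: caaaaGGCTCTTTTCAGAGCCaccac
Hist1h3c: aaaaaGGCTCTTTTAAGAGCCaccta
Hist1h3g: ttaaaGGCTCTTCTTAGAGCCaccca
Hist2h2ac: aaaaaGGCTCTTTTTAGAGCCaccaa
Hist1h4c: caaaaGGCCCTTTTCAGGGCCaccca
Hist1h4i: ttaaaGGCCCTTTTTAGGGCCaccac
Hist1h4a: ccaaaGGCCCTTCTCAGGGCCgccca
Hist1h4j: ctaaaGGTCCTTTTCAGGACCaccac

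The stem differed by histone class. All 12 H4 genes with a match carried GGCCCT (10 genes) or GGTCCT (2 genes) as the first arm, whereas the 4 H1, 11 H2A, 9 H2B and 9 H3 genes with a match all carried GGCTCT. The commonest whole element, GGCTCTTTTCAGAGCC, was shared by 25 genes, and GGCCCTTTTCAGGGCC was carried by 7. The stem-loop of Hist1h1c lies at chr13:23739512-23739527 on the plus strand, and that of Hist1h4i at chr13:22040966-22040981 on the minus strand. In both genes the annotated transcript runs on past the element, by 840 bases in Hist1h1c and 330 bases in Hist1h4i. The same holds for 18 of the 45 genes, whose transcripts extend over 200 bases beyond the stem-loop, up to 4884 bases in Hist1h1d.

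Sequencing gave 20324184 to 30654105 reads counted on genes per mouse. Mex3a itself had 269, 236, 327 and 328 counts in the Ctrl mice and 20, 28, 6 and 8 in the KO mice, which fits the labels (log2 fold change −4.43, SE 0.43, edgeR quasi-likelihood test, adjusted p = 0.031). Blocking on the replicate number gave an adjusted p of 0.126, and it was 0.0271 to 0.214 when 1 mouse was left out. The histone genes together received 2650 to 4521 counts per mouse, or 0.0123% to 0.0168% of all counts, so most of them were measured with few reads. Of the 67 genes, 42 had enough counts for the edgeR fit and were tested, 25 did not and reached at most 71 counts over all 8 mice, and 7 of these 25 had no count at all.

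A small number of genes gave most of the histone reads. Hist1h2bc, Hist1h1c, Hist2h2be and Hist1h4i held 67.4% of the 27514 counts over all mice, and the 12 genes with the highest mean CPM (read counts relative to the library's TMM-scaled total) held 79.5%. Counts rise with transcript length, so levels were compared between genes as FPKM, the deposited value that divides counts by gene length and library size. By mean FPKM over the 8 mice the order was Hist1h2bc at 33.6 ± 8.97 (SD, n = 8), Hist1h1c at 21.8 ± 4.27, Hist1h4i at 10.3 ± 4.67, Hist1h4k at 7.21 ± 2.18 and Hist2h2be at 6.27 ± 0.50. The ranges over the mice overlapped between each of these genes and the next. Next came Hist1h3g at 3.05 ± 1.03, the highest H3 gene, and Hist1h2ae at 3.0 ± 0.45, the highest H2A gene per length. Only 27 of the 67 genes reached a mean FPKM of 1.

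Hist1h2bc, an H2B gene, was the most abundant, and its annotated 3′ end is long. The gene spans positions 23684199 to 23692908 of chromosome 13 with 2 exons of 1156 bases in all, and its 3′UTR of 742 bases held no stem-loop motif. Its level was 32.9, 53.8, 29.4 and 36.5 CPM in the Ctrl mice and 24.9, 49.1, 49.0 and 36.5 CPM in the KO mice. The genotypes overlapped throughout, and mouse 2 was the highest of each genotype.

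Hist1h1c encodes the H1.2 linker histone. Its level was 36.0, 31.5, 28.8 and 33.0 CPM in the Ctrl mice and 27.8, 28.8, 47.3 and 39.8 CPM in the KO mice. KO mice 3 and 4 lay above all Ctrl mice, and KO mice 1 and 2 at or below the lowest of them.

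Hist2h2be, an H2B gene with a 3′UTR of 2192 bases and no stem-loop motif in it, was the steadiest of the abundant genes. It measured 16.9, 16.4, 16.4 and 14.8 CPM in the Ctrl mice and 18.4, 17.3, 14.5 and 17.3 CPM in the KO mice. The difference between genotypes was 0.06 on the log2 scale with a 95% interval of −0.18 to 0.30, the narrowest of all tested histone genes. It was 0.020 without KO mouse 1 and 0.13 without KO mouse 3.

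Hist1h4i, the most abundant H4 gene, varied most among the leading 4. It was at 5.04, 13.4, 5.86 and 6.22 CPM in the Ctrl mice and at 3.78, 12.1, 6.53 and 7.15 CPM in the KO mice. Mouse 2 of each genotype stood far above the other 3, and the genotype means were alike (7.62 ± 3.86 against 7.40 ± 3.48 CPM, SD, n = 4 each).

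**Figure D1:**
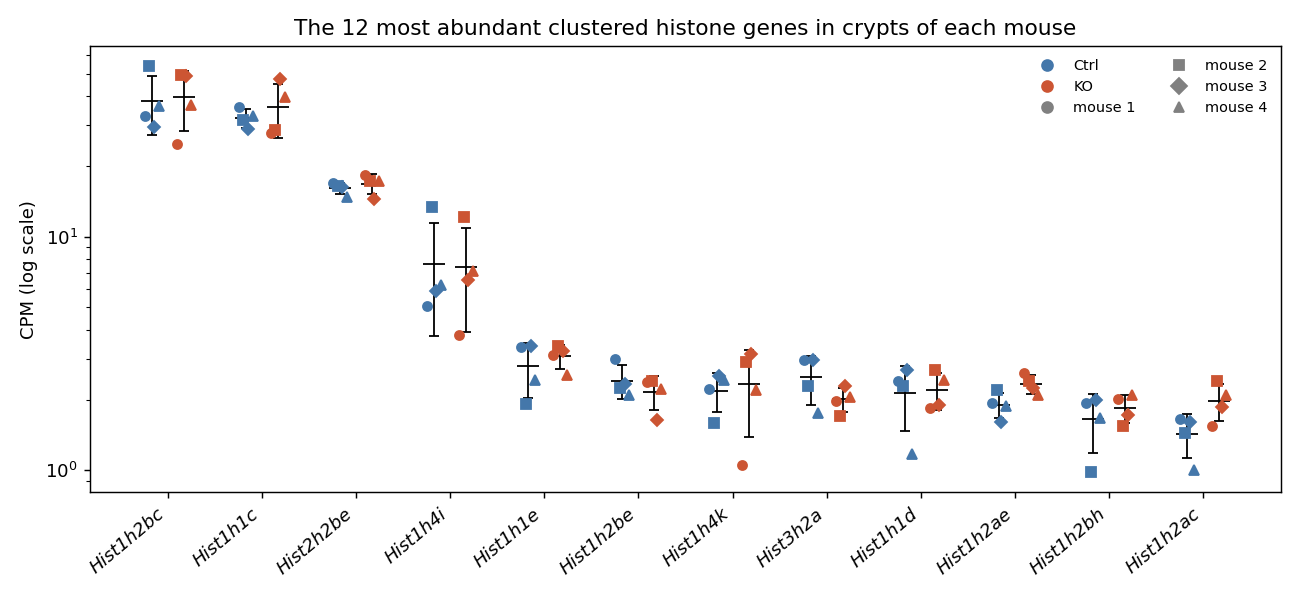
CPM (log scale) of the 12 histone genes with the highest mean, for each mouse; colour gives the genotype, the marker shape the mouse number, and black bars the mean ± SD of 4 mice. The genotypes overlap for every gene, and mouse 2 is the highest of both genotypes for Hist1h2bc and Hist1h4i.

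Long annotated 3′ ends accompanied much of the signal. The 25 genes with an annotated 3′UTR of at least 200 bases, a split set after the annotation was seen, held 84.6% of the histone counts, and the 42 with a shorter one held 15.4%. A longer transcript collects more reads, and the part of length in this split was not tested. Per length, the median FPKM was 0.914 among the 25 and 0.671 among the 42, and the highest was 33.6 and 7.21. The median share of 100-base stretches found in no other gene's transcript also differed, at 84.9% among the 25 and 41.8% among the 42, and its part in the FPKM difference was not tested. The 22 genes with no stem-loop in the transcript searched were not uniformly low: they had FPKM values from 0 to 33.6, with a median of 0.562. The median was 0.926 for the 18 genes with over 200 bases after the stem-loop, and 0.877 for the 27 with 200 or fewer. Hist1h4k, with an annotation that ends at the stop codon, was among the 5 highest per length. A value per length is too high where the real transcript is longer than the annotated one.

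**Figure D2:**
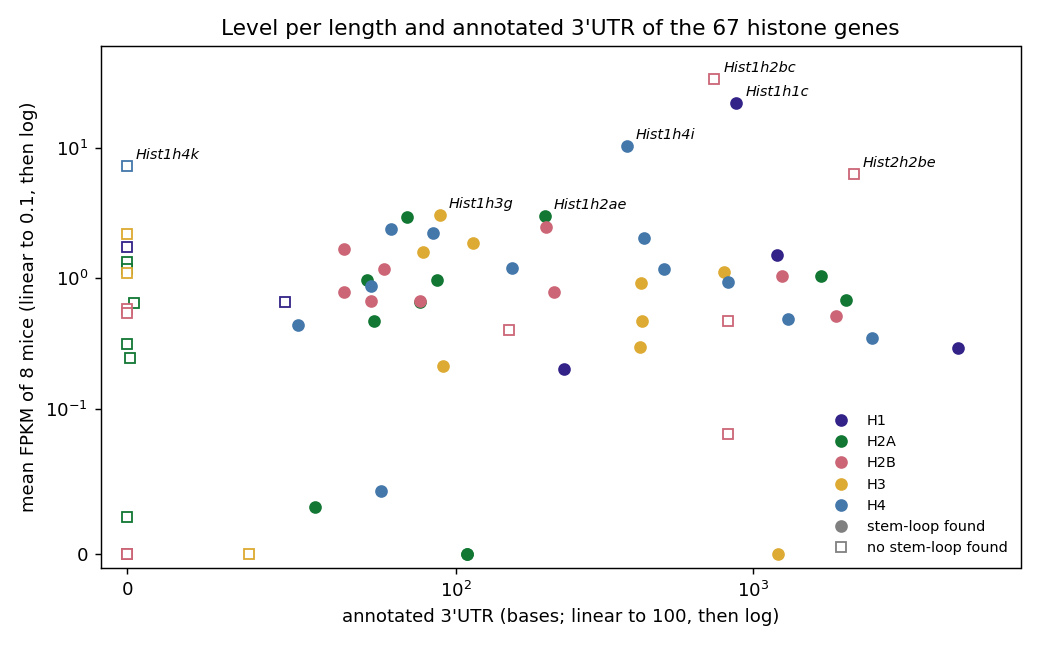
Annotated 3′UTR length in bases against mean FPKM over 8 mice for the 67 histone genes, both axes linear near 0 and logarithmic above; colour gives the histone class, filled circles genes with a stem-loop motif and open squares genes without. Hist1h2bc, Hist1h1c, Hist1h4i and Hist2h2be, with 3′UTRs of 742, 880, 376 and 2192 bases, are among the 5 highest, together with Hist1h4k, whose annotation holds no 3′UTR.

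The comparison of KO with Ctrl asked whether loss of Mex3a, which encodes an RNA-binding protein, was accompanied by a change in histone transcripts. At an unadjusted p under 0.05, the study's threshold for a differentially expressed gene, 1 of the 42 tested histone genes was called (2.38%), against 8.38% of all 16109 genes tested. None passed at an adjusted p under 0.05 (smallest 0.589), as did only 0.00621% of all genes, which is Mex3a alone. DESeq2 called 0 of the 42 at either threshold, against 9.08% of all genes unadjusted and 0.577% adjusted. The genotypes overlapped in all 42 genes, whereas 4.05% of all genes tested had no overlap. With the replicate block no histone gene had a p under 0.05, against 11.3% of all genes.

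The 1 gene called was Hist1h4c, an H4 gene at chr13:23697635-23698454. It measured 0.786, 0.748, 1.03 and 0.501 CPM in the Ctrl mice and 1.18, 1.16, 0.995 and 1.33 CPM in the KO mice. KO mice 1, 2 and 4 lay above all Ctrl mice, while KO mouse 3 lay below Ctrl mouse 3. The log2 fold change was 0.61 (SE 0.27, edgeR's quasi-likelihood test, adjusted p = 0.589). The gene missed the unadjusted threshold with the replicate block, in DESeq2, without a filter on low counts, and on leaving out any 1 mouse other than Ctrl mouse 3.

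The direction of the estimates was uneven. Of the 42 genes, 29 had a log2 fold change above 0 (69.0%), with a median of 0.15, against 46.1% of all genes and a median of −0.02; genes of a cluster share sequence and mice, and this is a description. Leaving out Ctrl mouse 2 moved the median to 0.27, and leaving out both mice numbered 2 moved it to 0.25. For 19 of the 42 genes the 95% interval lay within a 2-fold change either way, and for the other 23 it reached past 2-fold in at least 1 direction, so that a change of that size was not excluded there. The half-width of the interval ranged from 0.24 for Hist2h2be to 1.97 for Hist3h2ba on the log2 scale.

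**Figure D3:**
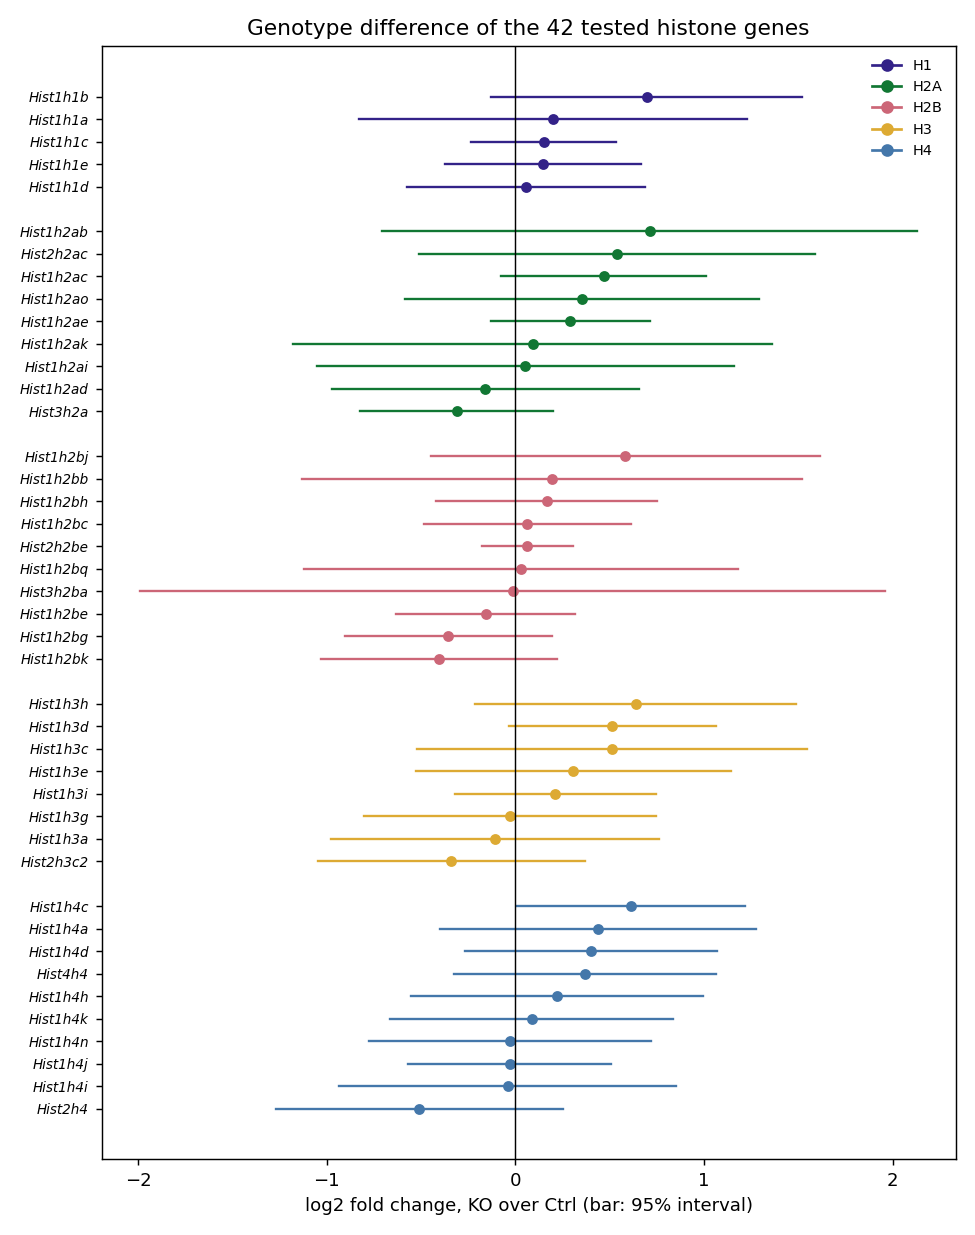
Log2 fold change of KO over Ctrl (dots) with its 95% interval (bars) for the 42 tested histone genes, grouped and coloured by class. Of these, 29 estimates lie above 0, and Hist1h4c is the only gene whose interval, 0.01 to 1.22, excludes 0.

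Among the linker histones, all 5 tested genes had a positive log2 fold change, from 0.06 for Hist1h1d to 0.70 for Hist1h1b, and none passed the test. Hist1h1c was at 32.4 ± 3.02 CPM in Ctrl and 35.9 ± 9.36 in KO mice (SD, n = 4 each), a log2 fold change of 0.15 with an interval of −0.23 to 0.54. It was −0.19 without KO mice 3 and 4. Hist1h1e (H1.4) was at 2.78 ± 0.74 and 3.08 ± 0.37 CPM, and Hist1h1d (H1.3) at 2.14 ± 0.67 and 2.21 ± 0.40 CPM. Hist1h1b (H1.5) was at 0.786, 1.12, 1.22 and 0.836 CPM in the Ctrl mice and at 1.09, 1.13, 2.90 and 1.33 CPM in the KO mice. KO mouse 3 was far above the other 7 mice, KO mouse 4 was also above every Ctrl mouse, and the KO mouse was higher in 4 of 4 same-numbered pairs. Leaving out KO mouse 3 took the log2 fold change from 0.70 to 0.26.

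Among the H2A genes 7 of the 9 tested were above 0, with a median log2 fold change of 0.29, and none passed the test. Hist1h2ae was at 1.94, 2.20, 1.61 and 1.88 CPM in the Ctrl mice and 2.60, 2.41, 2.25 and 2.09 CPM in the KO mice. KO mice 1, 2 and 3 exceeded every Ctrl mouse and KO mouse 4 did not (log2 fold change 0.29, interval −0.13 to 0.71). Hist1h2ac was at 1.43 ± 0.30 CPM in Ctrl and 1.98 ± 0.36 in KO mice (log2 fold change 0.47, interval −0.07 to 1.01). Hist1h2ab had the largest estimate of all, 0.71, on 89 counts in all, and its interval reached from −0.70 to 2.13. That estimate rests on single mice: it was 0.33 without KO mouse 2, 0.35 without Ctrl mouse 1, 0.47 without Ctrl mouse 4 and 1.29 without Ctrl mouse 2. Hist3h2a, of the Hist3 cluster and the H2A gene with the most reads, went the other way, at 2.49 ± 0.59 CPM in Ctrl and 2.01 ± 0.24 in KO mice (log2 fold change −0.31, interval −0.82 to 0.20).

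Among the H2B genes 6 of the 10 tested were above 0 and 4 below, with a median of 0.05, and none passed the test. Hist1h2bc differed by 0.06 (interval −0.48 to 0.61). The H2B genes held the second and the third lowest estimates of the whole family. Hist1h2bk, at 0.639 ± 0.070 CPM in Ctrl and 0.484 ± 0.114 in KO mice, had a log2 fold change of −0.41, and Hist1h2bg, at 1.72 ± 0.32 and 1.35 ± 0.28 CPM, one of −0.35, which was −0.22 without Ctrl mouse 4 and −0.23 without KO mouse 1. Hist1h2be was at 2.42 ± 0.40 and 2.17 ± 0.36 CPM and Hist1h2bh at 1.65 ± 0.47 and 1.85 ± 0.25 CPM.

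Among the H3 genes 5 of the 8 tested were above 0 and none passed the test. Hist1h3g, the H3 gene with the most reads, was at 2.73, 1.12, 1.86 and 0.877 CPM in the Ctrl mice and 1.81, 1.63, 1.47 and 1.53 CPM in the KO mice. The KO mice lay within the spread of the Ctrl mice. Hist1h3h was at 0.277, 0.607, 0.244 and 0.292 CPM in the Ctrl mice against 0.756, 0.427, 0.476 and 0.565 CPM in the KO mice. Ctrl mouse 2 was the 1 control above any KO mouse. Leaving it out took the log2 fold change from 0.64 to 1.02 and past the unadjusted threshold (adjusted p = 0.601).

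Among the H4 genes 6 of the 10 tested were above 0. Hist2h4, of the Hist2 cluster, had the lowest estimate of the family, at 1.39, 0.467, 1.07 and 0.794 CPM in the Ctrl mice and 0.588, 0.660, 0.692 and 0.665 CPM in the KO mice. The KO mice were tightly grouped and lay between Ctrl mouse 2 and the other controls (log2 fold change −0.51, interval −1.27 to 0.25). The estimate was −0.25 without Ctrl mouse 1 and −0.73 without Ctrl mouse 2. Hist1h4k was at 2.19 ± 0.42 CPM in Ctrl and 2.33 ± 0.95 in KO mice. Hist4h4, the only gene of its cluster, was at 0.876 ± 0.313 and 1.13 ± 0.212 CPM (log2 fold change 0.37, interval −0.32 to 1.07). The estimate was 0.20 without Ctrl mouse 4 and 0.56 without Ctrl mouse 1.

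Summed over all 67 genes the histone level was 138.4, 159.3, 129.4 and 127.3 CPM in the Ctrl mice and 121.7, 160.2, 167.2 and 150.3 CPM in the KO mice. The lowest and the highest of the 8 sums were both from KO mice, and the means were 138.6 ± 14.6 and 149.8 ± 19.99 CPM (SD, n = 4 each). The difference of 11.2 CPM was within the spread of either genotype, and it was 5.47 CPM without KO mouse 3, 7.46 without Ctrl mouse 4, 18.1 without Ctrl mouse 2 and 20.6 without KO mouse 1. By class the ratio of the means of KO to Ctrl was 1.12 for H1, 1.16 for H2A, 1.04 for H2B, 1.21 for H3 and 1.06 for H4, and the genotypes overlapped in each class. Between mice of the same number, the KO mouse was higher in 4 of 4 pairs for the H2A and H3 sums, in 3 of 4 for H4 and for all 67 genes, and in 2 of 4 for H1 and H2B. With 4 pairs an exact two-sided sign-flip test cannot go below p = 0.125. The H3 sum was 7.40 ± 0.91 CPM in Ctrl and 8.93 ± 1.06 in KO mice, and the H2B sum, the largest, was 64.7 ± 9.92 and 66.99 ± 10.5 CPM.

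Genes with short and long annotated 3′ ends were also summed apart. The 42 genes with a 3′UTR under 200 bases came to 19.3, 22.9, 22.0 and 16.6 CPM in the Ctrl mice and 21.3, 26.3, 24.8 and 24.3 CPM in the KO mice. KO mice 2, 3 and 4 lay above every Ctrl mouse, and KO mouse 1 lay among them. The KO mouse was higher in 4 of 4 same-numbered pairs, and in 2 of 4 for the genes with a longer 3′UTR. The 25 genes with a longer 3′UTR came to 118.4 ± 13 CPM in Ctrl and 125.7 ± 18.1 in KO mice. The median log2 fold change was 0.21 over the 21 tested genes with short 3′UTRs and 0.06 over the 21 with long ones.

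**Figure D4:**
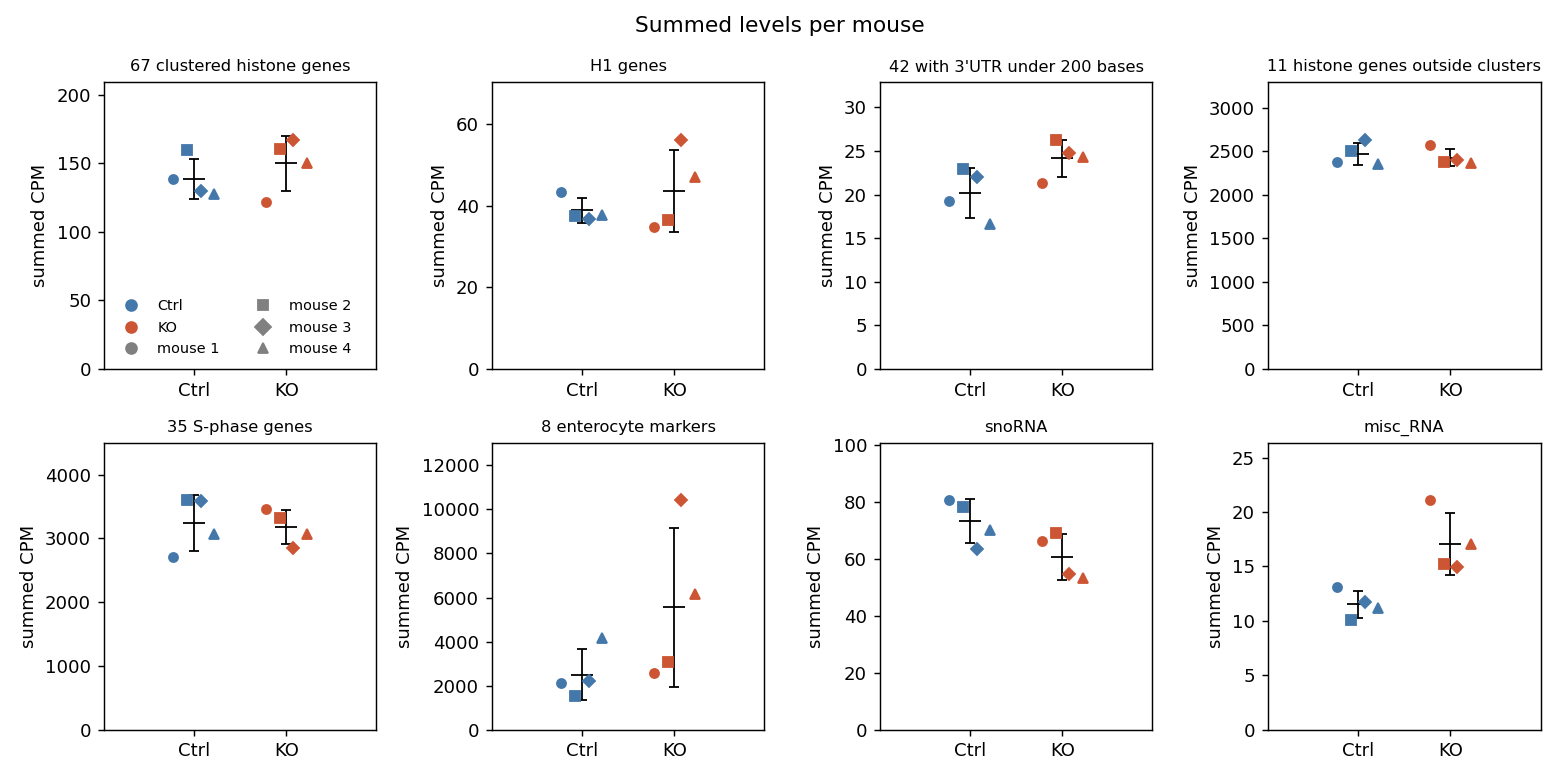
Summed CPM per mouse (points; bars give mean ± SD of 4 mice, axes start at 0) for the 67 histone genes, the H1 genes, the histone genes with 3′UTRs under 200 bases, 3 comparison lists, snoRNA and misc_RNA. The histone sums overlap between genotypes, while the misc_RNA sum is higher in every KO mouse than in any Ctrl mouse, a difference that lies in Rn7sk.

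Some differences between mice recurred in both genotypes. Of the 42 tested genes, 14 were highest in mouse 2 among the Ctrl mice and 15 in mouse 2 among the KO mice, and 10 (23.8%) in both, against 10.4% of all genes tested. Mouse 1 was highest in both genotypes for 6 genes (14.3%, against 7.69%), mouse 3 for 5 (11.9%, against 6.03%) and mouse 4 for 0 (against 6.01%), so that such recurrence was not limited to mouse 2. The 10 of mouse 2 were Hist1h2bc, Hist1h4i, Hist1h2ao, Hist1h3c, Hist1h4d, Hist1h4n, Hist1h2bj, Hist1h2ak, Hist1h2ab and Hist1h2bb, which were picked by this rank after their values were seen. They span H2A, H2B, H3 and H4 and hold no H1 gene. Mouse 4 was the highest Ctrl mouse for 3 genes. What a shared number stands for is not given by the labels.

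By position the 54 Hist1 genes fell into 4 blocks parted by over 100 kb. The block at chr13:23531050-23764406 held 29 genes and 69.6% of all histone counts, with Hist1h2bc and Hist1h1c in it, and its sum was 95.8 ± 9.76 CPM in Ctrl and 105.0 ± 17.6 in KO mice. Of its 22 tested genes, 17 were above 0. The block at chr13:21715763-21837530 held 18 genes, and 8.65% of the counts. The block of 5 genes at chr13:22035164-22043676, led by Hist1h4i, was at 6.38, 15.4, 7.71 and 7.60 CPM in the Ctrl mice and 5.71, 14.5, 8.44 and 9.04 CPM in the KO mice. There, too, mouse 2 was the highest of both genotypes. Hist2, which lies 7.68 Mb from Mex3a on chromosome 3, was at 18.0 ± 1.07 CPM in Ctrl and 18.5 ± 1.47 in KO mice.

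Near-identical copies limit what could be counted. The 67 genes have 63 distinct coding sequences, and 8 genes share theirs with another member. Of 100-base stretches of the transcripts, fewer than 50% were found in no other gene's transcript for 28 of the 67 genes, 11 of which were among the 42 tested. Hist1h2ao had 272 counts and Hist1h2ap, with the same coding sequence, 3; Hist1h4n had 193 and Hist1h4m 35; Hist1h2bq had 183 and Hist1h2br 34. How reads were divided within such a pair is not known, and these 6 values are uncertain. Of the 7 genes listed at 0 in every mouse, 5 lie in Hist2 (Hist2h2bb, Hist2h2aa2, Hist2h3c1, Hist2h3b and Hist2h2aa1), and none of these 5 has a 100-base stretch of its own. For them a count of 0 says nothing of expression. The other two, Hist1h2aa and Hist1h2ba, encode testis-specific histones, and lie together at chr13:23933773-23934851. Most of their sequence is their own (89.7% and 72.6%), and 0 counts allow at most 0.0979 to 0.148 CPM per mouse (3 counts of the total, counting error only). Hist1h1t, the testis H1 gene, had 36 counts over all mice.

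Exons of 24 of the genes overlap another annotated gene. Hist1h1e and Hist1h2be overlap each other and Gm11398, and Hist3h2a overlaps Trim17. Whether the counting used strand is not given in the sources used here, so reads of such pairs cannot be told apart.

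Genes that act around histone production were compared as lists. The 23 measured factors of histone mRNA processing and chaperoning had 0 genes at a p under 0.05 in edgeR in either direction, against 8.38% of all genes, with a median log2 fold change of −0.05, 3 estimates above 0 and 20 below. Slbp, whose product binds the stem-loop, was at 85.4 ± 9.71 CPM in Ctrl and 85.6 ± 8.83 in KO mice (SD, n = 4 each). Npat, the coactivator of histone gene transcription, was at 30.98 ± 0.80 and 28.8 ± 2.29 CPM (edgeR, adjusted p = 0.780), and Ncbp2, of the cap-binding complex, at 51.6 ± 5.15 and 46.7 ± 6.63 CPM (adjusted p = 0.782). The last 2 had the lowest p of the list.

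The 35 S-phase genes and the 20 mitosis genes likewise had 0 genes at a p under 0.05 in edgeR, against the same 8.38% of all genes, with medians of −0.03 and 0.02. Neither median kept its sign when 1 mouse was left out: the S-phase median was −0.11 without Ctrl mouse 1 and 0.039 without Ctrl mouse 2, and the mitosis median was −0.043 without KO mouse 1 and 0.088 without KO mouse 3. Without KO mice 3 and 4 they were 0.083 and 0.18. The S-phase sum was 3243 ± 434 CPM in Ctrl and 3176 ± 267 in KO mice. By lowest p the S-phase genes were Pola1, a DNA polymerase subunit (log2 fold change −0.12), and Gins4, of the replicative helicase (−0.14). Mki67 and Cenpf, both expressed in dividing cells and named for the lowest p of the mitosis list, were at −0.10 and −0.19. Of the mitosis genes 13 estimates were above 0 and 7 below, and of the S-phase genes 12 were above and 23 below. Adjusted p over all genes for these 4 was at least 0.714.

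The 11 histone genes outside the clusters, which mostly encode replication-independent variants with polyadenylated mRNA, were far more abundant in these libraries. Their sum was 2471 ± 127 CPM in Ctrl and 2426 ± 97.5 in KO mice, 16.98 times that of all 67 clustered genes over the 8 mice. Per length, H3f3b (H3.3) was at a mean FPKM of 265, H1f0 (the replacement linker histone) at 195 and H2afz (H2A.Z) at 171, against 33.6 for the highest clustered gene. None of the 11 had a p under 0.05 in edgeR, against the same 8.38% of all genes (median −0.04). The lowest p belonged to H1fx, at 1.92 ± 0.22 and 1.41 ± 0.20 CPM (log2 fold change −0.44, adjusted p = 0.605), and the next to H2afj, at 107 ± 13.4 and 99.5 ± 5.42 CPM.

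Since most replication-dependent histone mRNAs lack a poly(A) tail, other RNAs without one were measured in the same libraries. The sum over snRNA genes was 22.6 ± 2.11 CPM in Ctrl and 21.6 ± 1.51 in KO mice. The snoRNA sum was 80.5, 78.3, 63.6 and 70.3 CPM in the Ctrl mice and 66.3, 69.1, 54.6 and 53.2 CPM in the KO mice. The genotypes overlapped, and the KO mouse was the lower one in each of the 4 same-numbered pairs. Of 44 snoRNA genes tested, 38 had a negative estimate and 3 (Snord104, Gm23301 and Snora78) fell at a p under 0.05, against 3.05% of all genes. One of 7 snRNA genes tested, Gm22753, and 1 of 2 scaRNA genes, Gm23119, were also lower at that threshold. The scaRNA sum did not overlap, at 4.09 ± 0.27 CPM in Ctrl and 2.94 ± 0.37 in KO mice.

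The misc_RNA sum was 13.1, 10.1, 11.7 and 11.2 CPM in the Ctrl mice and 21.1, 15.2, 15.0 and 17.1 CPM in the KO mice. This sum did not overlap, and its difference lay in 1 gene, Rn7sk, the 7SK RNA that controls transcription elongation. Without Rn7sk the sum was 9.12 ± 0.99 CPM in Ctrl and 8.59 ± 1.06 in KO mice, and the genotypes overlapped. Rn7sk was at 2.40 ± 0.59 CPM in Ctrl and 8.49 ± 3.67 in KO mice (log2 fold change 1.82, SE 0.32, edgeR's quasi-likelihood test, adjusted p = 0.378), past the unadjusted threshold. The mitochondrial rRNA mt-Rnr1 was at 443 ± 145 and 798 ± 238 CPM, past the same threshold (adjusted p = 0.518). These genes were named after their values were seen. Over snRNA, snoRNA, scaRNA, misc_RNA and rRNA genes together the sum was 120.2 ± 9.87 CPM in Ctrl and 109.7 ± 11.5 in KO mice, with overlap, and it was lower in the KO mouse of each of the 4 same-numbered pairs. The part that carry-over of such RNA had in the histone values was not tested.

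Markers of cell types also differed between the genotypes. Among 9 epithelial markers Krt8, Krt19, Vil1 and Krt20 were higher in KO mice at a p under 0.05 in edgeR (5.33% of all genes were), among 8 enterocyte markers Anpep and Apoa1 were, and all 17 estimates were above 0. Of the 7 crypt-base genes all estimates were below 0, and Olfm4, Smoc2 and Lgr5 passed at that threshold, against 3.05% of all genes that were lower; of these 9 genes none passed after adjustment. The enterocyte sum was 2100, 1530, 2216 and 4161 CPM in the Ctrl mice and 2562, 3094, 10409 and 6141 CPM in the KO mice. KO mice 3 and 4, with the highest enterocyte sums, were also the 2 highest for Hist1h1c, which makes up most of the H1 sum. They also had the 2 highest H1 sums (56.2 and 46.9 CPM against 34.8 to 43.4 in the other 6). Among the other 6 mice, Ctrl mouse 4 had the highest enterocyte sum and an H1 sum of 37.8 CPM. Ctrl mouse 1 had the highest H1 sum of these 6 and an enterocyte sum of 2100 CPM. KO mice 3 and 4 were the highest for the 11 lymphoid markers, too (63.0 and 48.1 CPM, against 15.3 to 30.6), of which Cd8a and Cd3e passed at that threshold. With the replicate block 4 of 8 enterocyte, 4 of 10 tested lymphoid and 4 of 7 crypt-base genes did, against 11.3% of all genes. The part of cell makeup in the histone values was not tested, and in bulk RNA fewer cells of a type and less RNA per cell cannot be told apart. With KO mice 3 and 4 left out, 1 of 45 tested histone genes was at a p under 0.05, against 5.01% of all genes in that fit, and the summed difference was 2.35 CPM. The 1 gene was Hist1h3f, which had 71 counts over the 8 mice, did not pass the low-count filter with all mice and so was not among the 42. Blood and stroma were sparse: the 5 erythroid genes summed to at most 4.44 CPM, with Hba-a1 lower in KO mice at that threshold (adjusted p = 0.586), and the 8 stromal genes to at most 10.5 CPM, with Col3a1 and Pecam1 the nearest to a difference and neither past it. The 6 testis histone genes, 3 of them members of the clusters, summed to 0.277, 0.0934, 0.244 and 0.125 CPM in the Ctrl mice and 0.420, 0.466, 0.433 and 0.332 CPM in the KO mice. These sums did not overlap, but they rest on few counts over all mice, 36 of Hist1h1t, 20 of Hist3h2bb-ps and 2 of Hils1, and none of the 6 genes passed the filter. Hist3h2bb-ps is a pseudogene by its symbol and is not among the protein-coding members. Whether it is particular to testis was not checked.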

How the data were processed

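RNA-seq counts of 8 samples were grouped by the genotype in the labels. The authors deposited read counts per gene without normalization, and FPKM values made from them; the submitters' processing notes name CASAVA, HISAT2 2.0.5 and featureCounts 1.5.0-p3, with no build, library selection or strand setting. The start and end of all 67 members equal those of GENCODE M21 (GRCm38). Columns of the authors' own comparison (group means, fold changes, p-values) and 2 further files were not used.

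Counts were compared with edgeR 4.0.16 in R 4.3.3: filterByExpr (minimum count 10), TMM factors, and the two-sided quasi-likelihood test across 16109 genes with genotype as the only term, with Benjamini-Hochberg adjustment over all of them. The common biological coefficient of variation was 0.237. Standard errors were the log2 fold change over the square root of F, and 95% intervals used 9.34 degrees of freedom. CPM were counts scaled by library total and TMM factor. DESeq2 1.42.0, RLE factors, no filter, a replicate block and leaving out mice were alternatives. The fits were also run on simulated counts as a check of the code, and the outcome is not given here. Figures used matplotlib 3.10.9.

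The members and lists were chosen with earlier results of these data known. Genes named are Mex3a, the 12 members with most CPM, the top tested member of each class and cluster, the 3 highest and 3 lowest fold changes, members with p under 0.05 and the 2 list genes with the lowest p; other genes named, among them Slbp, H3f3b, H1f0, H2afz, Krt19, Vil1 and Lgr5, were chosen after their values were seen. Of the list genes, 2 were not found. After the genotype mean was subtracted, the mice numbered alike correlated at 0.129, 0.501, 0.141 and 0.294 across genes. Mice of different numbers were not compared in this way, so the values do not show that the numbers pair the mice. The numbers were used as pairs only in the replicate block and in the counts of same-numbered pairs, and the main fit left them out. Libraries of a genotype differed beyond sampling noise in every pair (chi-square over its degrees of freedom at least 20.9). That the mice are separate animals comes from the study's methods.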

Additional observations from a re-analysis of the deposited data

Results flagged for a closer look

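In groups of 4 mice, 1 mouse was taken as standing apart when its gap to the nearest other exceeded 0.829 of the group's range. Of 68 groups examined over the named genes and the sums, 4 met this, and chance gives about 1 in 20, or 3.4. Hist1h4i was at 13.4 CPM in Ctrl mouse 2 against 5.04 to 6.22 in the other Ctrl mice. Hist1h3h was at 0.607 CPM in Ctrl mouse 2 against 0.244 to 0.292. Hist1h1b was at 2.90 CPM in KO mouse 3 against 1.09 to 1.33. The H1 sum was 43.4 CPM in Ctrl mouse 1 against 36.8 to 37.8.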

How the results depend on the processing

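No histone gene passed an adjusted p under 0.05 in any setting run. The number at an unadjusted p under 0.05 was 1, and it was 0 in DESeq2 and 0 with the replicate block, and 0 to 3 with 1 mouse left out; the share of all genes at that threshold was 5.16% to 12.98% with 1 mouse left out. Without Ctrl mouse 3 Hist1h3d, Hist1h3f and Hist1h4c were called (3 of 43, against 6.27% of all genes), without Ctrl mouse 2 Hist2h4 and Hist1h3h (2 of 44, against 7.75%), and without KO mouse 4 Hist1h3d and Hist1h3f (2 of 43, against 6.16%). Without a filter on low counts 1 of 60 was called, Hist1h3f, against 6.43% of all genes. Hist1h3f did not pass the filter with all mice, so its calls come from fits in which it was newly tested. Genes with a positive estimate numbered 26 to 32 with 1 mouse left out. The median was 0.25 with both mice numbered 2 left out, 1 of 2 alternatives chosen after seeing the data (the other left out KO mice 3 and 4), and 0.11 to 0.27 with 1 mouse left out. The summed difference was 5.47 to 20.6 CPM with 1 mouse left out and 2.35 CPM without KO mice 3 and 4. Mex3a was at −4.51 with the block and between −4.87 and −4.17 with 1 mouse left out. Leaving out 1 mouse gave 0 to 1 calls among histone processing, mitosis and polyadenylated histone genes (Chaf1b, Cenpf and H2afv), and 1 mitosis gene, Ndc80, was called without KO mice 3 and 4. The medians of the S-phase, mitosis, histone processing and polyadenylated histone genes lay between −0.11 and 0.088 with 1 mouse left out. The causes were not tested.

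Estimates near 0 changed sign. Hist1h3g was at 0.077 with the block. Without KO mice 3 and 4, Hist1h2bc was at −0.041, Hist1h1c at −0.19, Hist1h4i at 0.066, Hist1h4k at −0.14 and Hist1h3g at 0.065. Without both mice numbered 2, Hist1h4i was at 0.031, Hist1h1e at −0.044, Hist1h4k at −0.17 and Hist1h1d at −0.0060. With 1 mouse left out the ranges were −0.052 to 0.28 for Hist1h2bc, −0.0091 to 0.26 for Hist1h1c, −0.39 to 0.38 for Hist1h4i, −0.093 to 0.33 for Hist1h4k, −0.15 to 0.19 for Hist1h1d, −0.016 to 0.28 for Hist1h2bh and −0.24 to 0.33 for Hist1h3g. The replicate block changed no other call among the histone, processing, S-phase and mitosis genes than that of Hist1h4c. With it both mitochondrial rRNA genes were called in place of 1, and 0 scaRNA genes in place of 1.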
